A study of Mus musculus with 6 samples.

Results

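The data described here are the gene expression profile of wild-type mouse brainstem motor neurons, measured on 3 Affymetrix arrays, which are all the arrays of the wild-type (WT) group among the 6 samples of the study. The labels give the source as brainstem motor neurons of WT mice, with no transgene, and name the samples WT1, WT2 and WT3. The other 3 samples are labelled SOD1 and were not used. The labels give no age, sex, strain, number of animals or way of collecting the motor neurons. They do not say whether the 3 samples came from separate animals either, so the spread between arrays may be technical. Total RNA went through 2 rounds of a T7-based amplification before hybridisation. With 1 group of 3 arrays there was no comparison to test, and every value below is a description.

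Motor neurons of the brainstem nuclei send axons out of the brain in the cranial nerves to the muscles of the eyes, face, jaw, throat and tongue. They release acetylcholine at the neuromuscular junction, which requires choline acetyltransferase (Chat) to make it, the vesicular transporter Slc18a3 to load it into vesicles and the choline transporter Slc5a7 to recover choline. Their long and wide axons are filled with neurofilaments and depend on kinesin and dynein motors for transport. Astrocytes, oligodendrocytes, microglia and vessels lie against their cell bodies.

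Each gene was represented by its probe set with the highest WT mean, where a probe set is a group of short probes that reads 1 transcript. Signals are given as log2(signal + 16), so 1 unit is a 2-fold step in signal plus 16, and every fold below is on that scale. Of 45037 probe sets other than controls, 34945 had a single gene symbol, and these gave 18193 genes. A signal was called above background when it exceeded, on all 3 arrays, the 95th percentile of 27 control probe sets for bacterial RNAs. That level was 7.30 on WT1, 7.40 on WT2 and 7.19 on WT3. It was passed by 12277 genes, 67.5% of those measured. Percentiles place a gene among the 18193 by its mean signal, and the top 10% are the 1820 genes of highest mean. Probe sets differ in how well they bind, so a position is one of signal and not an amount of RNA, and in RNA of many cells fewer cells of a type and less RNA per cell cannot be told apart. The arrays were not alike in every group of genes: WT3 read lower than the others for most non-neuronal markers, WT2 higher for neutrophil and smooth muscle genes, and the values stand with those genes below.

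The start regions of 8 genes on which the results below turn are shown first. Each is the 100 bases before the transcription start, read 5′ to 3′ on the gene's strand from RefSeq (GRCm38.p6), with no transcribed base included. Chat and Slc18a3 form the cholinergic locus, in which the transporter gene lies inside Chat. Their starts are 1059 bases apart on the minus strand of chromosome 14, at windows chr14:32465910-32466009 and chr14:32464851-32464950. Prph (chr15:99055074-99055173, plus strand) and Ina (chr19:47014581-47014680, plus strand) encode neuronal intermediate filaments. Isl1 (chr13:116309689-116309788, minus strand) encodes a motor neuron transcription factor, and Chodl (chr16:78930848-78930947, plus strand) encodes a membrane protein known from fast motor neurons. S100a8 (chr3:90668971-90669070, plus strand) and Sprr1a (chr3:92485882-92485981, minus strand) had the largest standard deviations over the arrays of all genes above background. Capitals mark the motif TATAAA, searched on both strands.
Chat: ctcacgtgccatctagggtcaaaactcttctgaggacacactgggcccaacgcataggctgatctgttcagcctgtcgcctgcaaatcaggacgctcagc
Slc18a3: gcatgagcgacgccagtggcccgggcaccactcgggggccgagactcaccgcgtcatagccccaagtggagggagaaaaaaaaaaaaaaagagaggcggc
Prph: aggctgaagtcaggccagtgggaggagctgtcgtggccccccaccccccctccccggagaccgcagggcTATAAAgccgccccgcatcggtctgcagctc
Ina: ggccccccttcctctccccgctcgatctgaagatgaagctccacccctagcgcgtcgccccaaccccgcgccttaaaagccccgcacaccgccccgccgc
Isl1: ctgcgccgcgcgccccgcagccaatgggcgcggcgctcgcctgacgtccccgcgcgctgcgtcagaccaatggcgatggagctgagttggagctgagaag
Chodl: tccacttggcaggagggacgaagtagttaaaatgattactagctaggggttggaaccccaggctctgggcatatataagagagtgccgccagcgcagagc
S100a8: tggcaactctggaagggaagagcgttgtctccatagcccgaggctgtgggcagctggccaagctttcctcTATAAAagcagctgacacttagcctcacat
Sprr1a: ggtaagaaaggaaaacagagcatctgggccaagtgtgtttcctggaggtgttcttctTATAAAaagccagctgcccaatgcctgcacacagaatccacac
The first base of the motif lay 31 bases before the start of Prph, 30 before that of S100a8 and 43 before that of Sprr1a, and these letters were not in the other 5 windows shown. The windows of Stmn3, S100a9, Camp, Ngp and Gal were searched as well, are not shown and did not hold the motif. Of 32851 promoter windows of the same length, 1827 (5.56%) held the motif on either strand. Among measured genes in the top 10% of signal it was in 33 of 1489 first windows (2.22%), and among genes not above background in 417 of 4523 (9.22%). A match is a description of the letters and was not tied to any measurement here.

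The 30 highest signals came from genes of varied function, 6 of them on cytoskeletal lists and 4 on the list of oxidative phosphorylation subunits. Stmn3, a stathmin that regulates microtubules, led with 17.53, 17.49 and 17.59 on WT1, WT2 and WT3. Uqcrb, a subunit of respiratory complex III, followed with 17.37, 17.29 and 17.52. The neurofilament light chain gene Nefl, at rank 3, had 17.27, 17.22 and 17.43. These 3 genes varied by less than 0.3 between arrays. After them came Ywhab, a 14-3-3 adaptor, with 17.19, 17.31 and 17.40, and Hspa8, the constitutive Hsc70 chaperone, with 17.16, 17.28 and 17.33. The 30 genes spanned 16.90 to 17.54, and their standard deviations (SD, n = 3) ran from 0.0089 for Cox7a2 to 0.20 for Aldoa. The cytoskeletal genes were Stmn3, Nefl, Tuba1a, Tuba4a, Sptan1 and Actg1, and the oxidative phosphorylation genes Uqcrb, Cox5b, Cox7a2 and Cox6a1, with Cox6b1 a further respiratory subunit not on that list. Ldhb and Aldoa belong to glucose and lactate metabolism, Cplx1 is the complexin that holds synaptic vesicles ready for release, and Ndn is necdin, a neuronal growth suppressor. Clu and Htra1, which astrocytes also express, were among the 30 as well.

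WT3 gave the highest of the 3 values for 28 of these 30 genes, against 34.0% of all genes, and WT2 the lowest for 20, against 30.1% of all genes. Probe sets of 26 of the 30 had names ending in _x_at or _a_at, 13 of each, which the maker gives to designs that can read related transcripts or several transcripts of a gene. For 28 of the 30 genes there was a further probe set, and it read within 1 unit of the first for 18. It read more than 3 units lower for 3, namely Rtn3 (next at 13.75), Slc25a3 (7.08) and Ints6 (10.45). Tuba1a and other tubulins have near-identical relatives, so their values may include reads of each other's RNA.

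**Figure D1:**
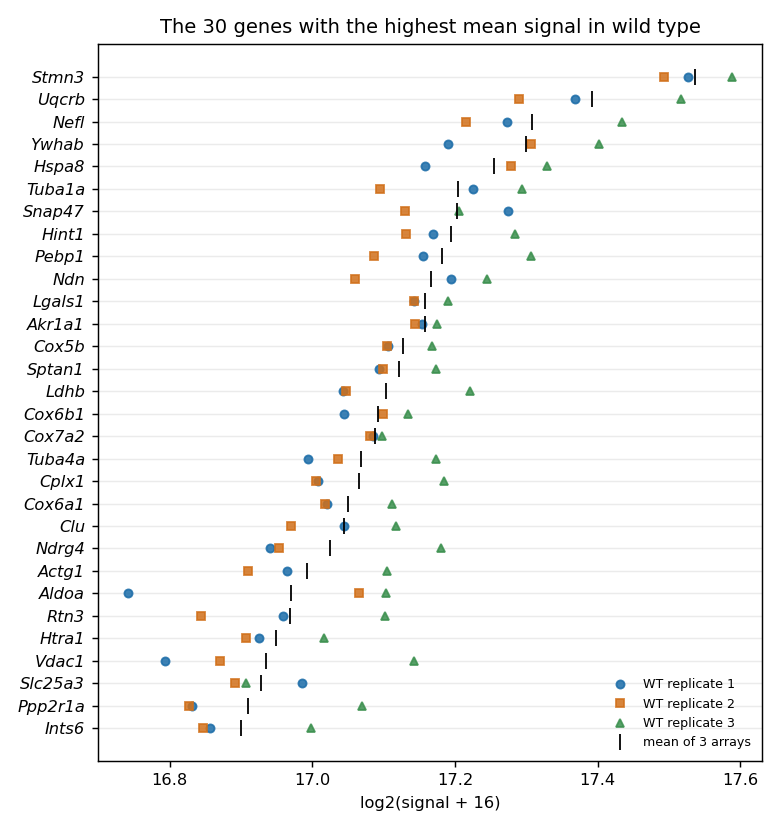
Genes with the 30 highest WT means, with 1 symbol per array and a bar at the mean of the 3, on a log2(signal + 16) axis. The symbols of WT replicate 3 are the rightmost for 28 of the 30 genes, and no gene spreads beyond an SD of 0.20.

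Genes were then sorted into lists by function. Of 50 lists, 10 had a median percentile above 90. They were the neuronal intermediate filaments (99.7), oxidative phosphorylation subunits (98.9), glycolysis and lactate enzymes (98.6), actin, spectrin and growth-associated proteins (98.1), cytosolic ribosomal proteins (97.8), kinesin, dynein and dynactin (94.1), microtubule-associated proteins and stathmins (93.2), granins and dense core vesicle proteins (92.3), tubulins (91.5) and genes linked to amyotrophic lateral sclerosis (ALS, 90.9). At the other end stood the forebrain and cerebellar transcription factors (12.96), genes restricted to other organs (15.95) and Hox genes (17.3). Of 26 measured genes of other organs 7 (26.9%) were above background, led by Cela1, a pancreatic elastase, with 12.77, 14.11 and 13.13, and Apoa2, a liver apolipoprotein, with 10.87, 10.39 and 8.82. The other 5 of these read below 9 on every array.

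**Figure D2:**
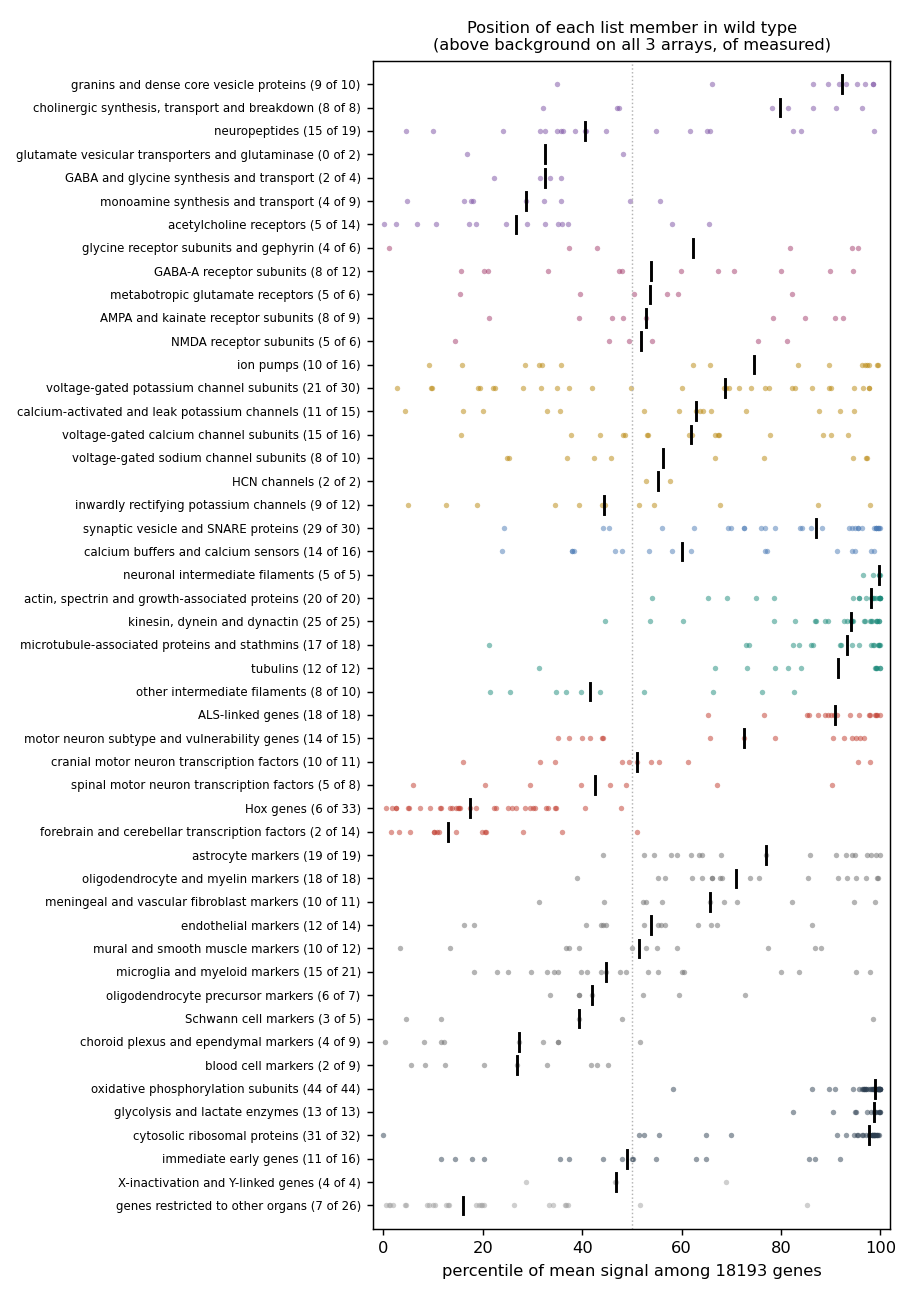
Each row is a gene list, each point a measured gene at its percentile of mean signal among 18193 genes, with a bar at the list's median. Cytoskeletal, energy and ribosomal lists lie at the right edge, and the Hox, forebrain and other-organ lists at the left, with medians of 17.3, 12.96 and 15.95.

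Neuronal intermediate filaments stood at the top of the cytoskeletal genes, with all 5 measured, above background and in the top 10%. Besides Nefl, the heavy chain gene Nefh read 16.56, 16.66 and 16.90 on WT1, WT2 and WT3. The medium chain gene Nefm read 16.53, 16.68 and 16.78. Peripherin (Prph), a filament of neurons with axons outside the brain, read 15.86, 16.07 and 16.23. Alpha-internexin (Ina), the central nervous system partner of the triplet, read 15.31, 15.61 and 14.92. WT3 was highest for the first 4 and lowest for Ina, and no pair of arrays differed by more than 0.69. The value of Prph rested on 1 of its 4 probe sets, since the others read between 6.28 and 10.18. On the list of other intermediate filaments, the lamin gene Lmna, of the nuclear envelope of most cells, had 12.76, 12.96 and 13.34, and the astrocyte filament Gfap 11.08, 10.18 and 9.06.

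Transport and microtubule genes were likewise high. All 25 measured kinesin, dynein and dynactin genes were above background, 16 of them in the top 10%, with a median SD of 0.12 against 0.39 over all genes. Since SDs fell with the level, each was also set against the median SD of the genes in its own level bin (10 bins of equal size), which 50% of all genes exceed by construction, and 9 of the 25 exceeded it. So did 3 of 12 tubulins, 8 of 18 microtubule-associated genes and 3 of 5 neuronal intermediate filaments. The kinesin heavy chain Kif5a, which carries neurofilaments down the axon and in which human mutations cause hereditary motor disorders, read 16.01, 16.34 and 16.58. Its relative Kif5c read 16.40, 16.28 and 16.49, and the kinesin light chain Klc1 16.70, 16.56 and 16.75. The dynein heavy chain Dync1h1, the motor for return transport, read 16.28, 16.46 and 16.41, and Dctn1, the largest dynactin subunit, 15.82, 15.77 and 15.62. Kif1a, a carrier of synaptic vesicle precursors, read lower with 9.32, 8.89 and 9.55. All 12 measured tubulins and 17 of 18 microtubule-associated genes were above background, among them the neuronal beta tubulin Tubb3 with 16.17, 16.22 and 16.36 and Stmn2, a growth cone stathmin, with 16.45, 16.55 and 16.79. The exception was Dcx, doublecortin of immature neurons, with 6.61, 6.43 and 7.76. Map2, of dendrites, differed most within this list, with 13.72 and 13.47 against 15.51 on WT3. Over all 90 cytoskeletal genes 87 were above background and 53 in the top 10%.

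The cholinergic genes were all detected, at widely spaced signals. Acetylcholinesterase (Ache), which breaks acetylcholine down, read 14.95, 15.25 and 15.38 on WT1, WT2 and WT3, at percentile 96.2. The vesicular transporter Slc18a3 read 13.07, 13.66 and 13.59, at 86.3. Chat itself read 9.08, 9.60 and 9.83, near the middle of all genes at 46.9. The choline transporter Slc5a7 read 10.04, 9.58 and 9.10, at 47.5. Chat and Slc5a7 thus lay on the side of the lower signals although the cells are labelled as motor neurons, each with 1 probe set. Prima1, which anchors acetylcholinesterase in the membrane, had 12.60, 12.58 and 12.54, with the arrays almost equal. Butyrylcholinesterase (Bche) was close to background with 7.96, 7.70 and 7.92. Among acetylcholine receptors 5 of 14 (35.7%) were above background, against 67.5% of all genes. The alpha 7 subunit Chrna7 had the highest values with 11.51, 10.88 and 11.77.

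Genes of other transmitters mostly gave low or uneven signals, but some read as high as Chat and Slc5a7 or higher. The vesicular glutamate transporter Slc17a6 read 10.70 and 11.02 on WT1 and WT2 and 7.19 on WT3, which is the background level of that array. Slc17a7 read 5.14, 7.23 and 7.40. The GABA-synthesising enzymes Gad1 (7.58, 7.60 and 5.87) and Gad2 (7.52, 8.0 and 7.85) lay near background. The glycine transporter Slc6a5, of glycinergic neurons, read 9.20, 7.30 and 8.24, and the vesicular transporter Slc32a1 8.89, 7.86 and 7.23. Of these 6 genes only Gad2 and Slc32a1 exceeded background on all 3 arrays. Tph2, the enzyme that starts serotonin synthesis in neurons, was clearer with 10.15, 10.71 and 10.49, above Chat and Slc5a7 on every array. By contrast, the serotonin transporter Slc6a4 (7.29, 7.23 and 5.38) was above background on 0 arrays. The monoamine synthesis gene Ddc read 10.23, 10.08 and 9.10, at percentile 49.6 against 46.9 for Chat. Tyrosine hydroxylase (Th) read 8.30, 8.25 and 6.06 and dopamine beta-hydroxylase (Dbh) 8.19, 7.92 and 7.53. Serotonin and catecholamine fibres reach motor neurons, but their cell bodies lie elsewhere in the brainstem, and whether such cells were in the samples was not tested.

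Among neuropeptide genes the arrays were close for some and far apart for others. Calcb, the beta form of the peptide CGRP that motor neurons release at muscle, read 16.17, 15.89 and 16.22 on WT1, WT2 and WT3. It was the only neuropeptide gene in the top 10%, out of 19 measured. Cholecystokinin (Cck) read 12.96, 13.33 and 12.70, and neurotensin (Nts) 12.72, 14.43 and 12.39, highest on WT2. Galanin (Gal) read 13.54, 9.12 and 11.57, a 21.4-fold range, with WT1 high and WT2 low. Enkephalin (Penk) read 10.97, 9.18 and 12.98, with WT3 high, and urotensin 2 (Uts2), known from brainstem and spinal motor neurons, 12.01, 9.55 and 9.56, with WT1 high. Of the 19 genes, 4 were highest by over 1 unit on WT1, 3 on WT2 and 1 on WT3, against 4.18%, 4.19% and 4.12% of all genes. The shares on WT1 and WT2 were thus well above those of all genes, and that on WT3, of 1 gene, was close to it. The genes of the vesicles that carry peptides were more even: of 10 measured granin and dense core vesicle genes, 9 were above background and 6 in the top 10%, with a median SD of 0.19 against 0.79 for the peptides. Of the peptides 15 of 19 exceeded the median SD of their level bin, and of the vesicle genes 5 of 10. Scg3 read 16.09, 15.87 and 16.15, chromogranin A (Chga) 15.41, 15.54 and 15.15 and carboxypeptidase E (Cpe), which trims peptide precursors, 16.15, 15.93 and 15.87.

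Release machinery was detected almost in full, with 29 of 30 measured synaptic vesicle and SNARE genes above background. Vamp1, the synaptobrevin of motor terminals, read 15.93, 16.30 and 16.57, and Syt2, the calcium sensor of fast synapses, 15.23, 15.21 and 15.23. Snap25 read 16.39, 16.57 and 16.52, and gamma-synuclein (Sncg) 16.27, 16.55 and 16.75. The member below background on an array was Synpr, with 8.80 and 8.20 on WT1 and WT3 and 4.49 on WT2.

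Of 39 measured receptor subunit and gephyrin genes for glutamate, glycine and GABA, 30 were above background, where 67.5% of all genes were. Of the AMPA receptor genes, which encode the main fast glutamate receptor, Gria4 read 14.19, 14.28 and 14.47 on WT1, WT2 and WT3 and Gria3 14.43, 13.69 and 14.08. Gria2, whose edited product keeps calcium out of the channel, read 12.47, 12.25 and 13.01. Gria1 read 12.87, 14.18 and 12.81, with WT2 above the others by more than 1 unit. Among NMDA receptor genes Grin3b, known for its expression in motor neurons, had the highest values with 12.53, 12.90 and 13.18, and Grin2a was above background on 0 arrays with 6.97, 6.91 and 5.27. The adult glycine receptor subunits Glra1 (14.43, 14.99 and 15.49) and Glrb (14.90, 14.45 and 14.85) and their anchor gephyrin (Gphn, with 12.88, 13.05 and 12.84) were all far above background. The SD of Glra1 was 0.53, above the median of 0.15 in its level bin, and the arrays were within 0.21 of each other for Gphn. Gabrb1 led the GABA-A receptor genes with 14.82, 14.74 and 14.75, and 8 of 12 (66.7%) were above background, close to the share of all genes.

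The highest signals on the channel lists came from sodium and potassium channel genes and from pumps. The sodium channel genes Scn1a (15.47, 15.19 and 15.77), its beta subunit partner Scn4b (15.44, 15.64 and 15.49) and Scn8a (14.68, 14.66 and 14.94), which encodes the channel of nodes of Ranvier, were all in the top 10%. Scn10a, a channel of sensory ganglia, read 6.68, 7.29 and 7.67. Of the potassium channels of the axon, Kcna1 read 15.69, 15.54 and 15.78, Kcna2 15.37, 15.02 and 15.38 and their subunit Kcnab1 15.60, 15.54 and 15.94. The inward rectifier Kcnj14, known from cranial motor nuclei, read 15.55, 15.87 and 15.74. Those 4 potassium channel genes differed by at most 0.40 between arrays. The leak channels Kcnk1 (14.06, 14.30 and 14.27) and Kcnk3 (13.47, 13.48 and 13.84), the latter a target of transmitters that excite motor neurons, were also well above background. The inward rectifier Kcnj9 was far less even, with 8.71, 9.77 and 12.48. It was not alone, since 12 of the 101 channel and pump genes had an SD above 1, where 16.2% of all genes did. The median SD of the 101 genes was 0.38, against 0.39 over all genes. Of 16 calcium channel genes 15 were above background, at a median percentile of 61.8 against 56.2 for the sodium channel list, with the accessory subunit Cacna2d3 at 14.46, 14.24 and 14.90 and Cacna1a, the pore of the channel that drives release at the neuromuscular junction, at 9.92, 9.41 and 9.72. Hcn2 and Hcn3, the 2 measured genes of the pacemaker current, read 10.75, 10.90 and 10.40 and 9.75, 10.43 and 10.32. Over the 101 channel and pump genes 76 were above background, against 67.5% of all genes, and 18 were in the top 10%. They were led by the pump genes Atp1b1 (16.56, 16.52 and 16.68) and Atp2a2 (16.43, 16.18 and 16.52).

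The labelled cell type was checked against genes of motor neuron identity. Isl1 read 15.09 on WT1 and 14.90 on WT2, with WT3 between them (SD 0.10, n = 3), at percentile 95.5. Tbx20, of cranial motor neurons, read 11.27, 10.95 and 10.76, and Tbx3 10.25, 10.27 and 10.25. Phox2a, which specifies the oculomotor and trochlear nuclei, was just above background with 8.09, 7.83 and 7.44. Of 11 measured genes on the cranial list, 10 were above background. Of the spinal list 5 of 8 (62.5%) were, near the 67.5% of all genes. Foxp1 (14.16, 13.66 and 14.03) and Lhx4 (11.19, 11.68 and 11.75) were clear. Mnx1, of spinal and some hindbrain motor neurons, was above background on WT1 alone with 8.11, 6.49 and 6.01, and Lhx1 on 0 arrays with 5.32, 5.01 and 6.42.

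Genes that distinguish kinds of motor neuron were mostly present together. Chodl read 15.62, 14.93 and 15.40, and Mmp9, of fast motor neurons that are lost early in ALS models, 12.32, 11.93 and 11.85. Esrrg, known from gamma motor neurons, read 13.97, 13.82 and 14.13. Rbfox3 (NeuN), which alpha motor neurons hold in quantity, read 15.45, 15.26 and 14.46, lowest on WT3. The receptors for the survival factor GDNF were high, with Ret at 15.08, 14.71 and 14.94 and Gfra1 at 14.66, 14.63 and 14.85. RNA of many cells does not show whether 1 cell held several of these transcripts. All 18 measured ALS-linked genes were above background, and Sod1, the gene altered in the study's other group, read 16.43, 16.42 and 16.55 in WT at percentile 99.4. Tardbp read 13.43, 13.40 and 13.90, and C9orf72 13.89, 14.07 and 14.37.

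Hox genes, which record position along the hindbrain and spinal cord, were mostly not above background, with 6 of 33 that were. Hoxb3 read 9.54, 9.47 and 9.79, Hoxb2 8.66, 8.68 and 8.99, Hoxa2 8.37, 8.33 and 7.70 and Hoxa3 7.94, 8.10 and 7.80. These 4 belong to the paralog groups of the hindbrain. The other 2, Hoxa9 (7.80, 8.70 and 7.24) and Hoxc6 (7.78, 7.45 and 7.77), are genes of the spinal cord and read between 7.24 and 8.70. Hoxc4 was high on WT2 only, with 5.60, 8.94 and 4.81.

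Markers of other cells of the brainstem were detected in part. All of 19 astrocyte genes and 18 oligodendrocyte genes were above background on the 3 arrays, and of 124 non-neuronal genes 98 were. Myelin basic protein (Mbp) read 16.63, 16.57 and 16.56 on WT1, WT2 and WT3, at percentile 99.6, and Mobp 14.88, 14.98 and 14.82. The astrocyte genes Slc1a2 (14.90, 14.80 and 14.82) and Gja1 (13.86 to 14.43), which encode the glutamate transporter and connexin 43, were also high, and Aldh1l1 read 10.65, 11.37 and 10.42. Of 21 microglial and myeloid genes 15 (71.4%) were above background, close to the 67.5% of all genes, with the growth factor receptor Csf1r at 14.13, 13.57 and 11.70, the signalling adaptor Tyrobp at 11.01, 9.85 and 8.26 and Cx3cr1, the fractalkine receptor, at 9.87, 10.75 and 7.21. The last is at the background of WT3. Cldn5, of the tight junctions of brain vessels, read 11.79, 11.87 and 10.91. Cd68, of phagocytes, read 9.72, 7.53 and 5.67, so that WT3 was below background. The part of such cells in the signals of the neuronal genes was not tested.

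**Figure D3:**
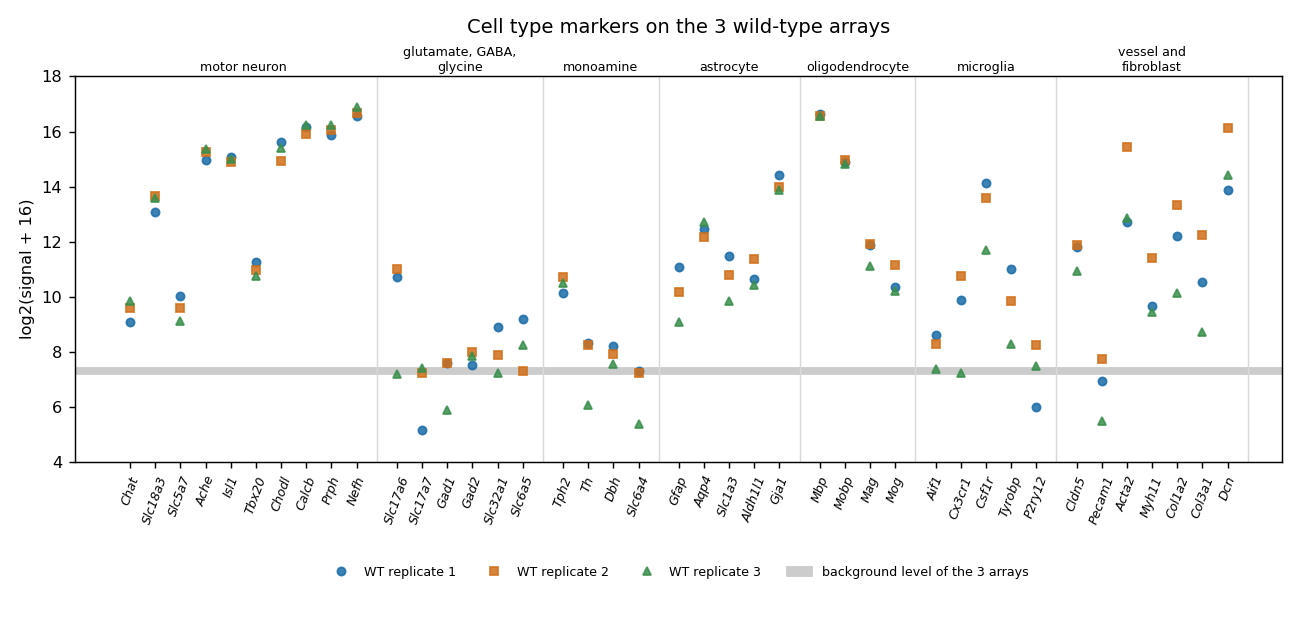
Signals of chosen markers on the 3 arrays, on a log2(signal + 16) axis with the background level as a grey band. The motor neuron markers drawn lie above the band on every array. Mnx1 and Lhx1, which were not above background on all 3 arrays, are not drawn. Glutamate, GABA and glycine markers mostly lie near the band, and the symbols of WT replicate 3 are the lowest for most microglial and fibroblast markers.

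WT3 gave lower values than the other arrays for most non-neuronal markers. Of the 124 genes, 89 were lowest on WT3, where 38.1% of all genes were, and 30 were lowest there by over 1 unit, against 8.14% of all genes. By list, WT3 was lowest for 17 of 18 oligodendrocyte, 16 of 21 microglial, 10 of 11 fibroblast, 6 of 7 oligodendrocyte precursor, 11 of 14 endothelial, 6 of 9 choroid plexus, 11 of 19 astrocyte, 5 of 9 blood, 6 of 12 mural and 2 of 5 Schwann cell genes. The mean over the microglial list was 10.40, 10.21 and 8.96 on WT1, WT2 and WT3, and over the fibroblast list 11.99, 12.43 and 10.15. Low values on WT3 were not particular to these lists: 23 of 32 cytosolic ribosomal protein genes, 10 of 16 calcium buffer and sensor genes and 6 of 9 monoamine genes were lowest there too, against 26 of 90 cytoskeletal genes. The shifts differed in size. The median of WT3 minus the mean of WT1 and WT2 was -0.13 for the ribosomal, -0.24 for the calcium and -0.80 for the monoamine list. For the astrocyte, microglial and fibroblast lists it was -0.21, -1.35 and -2.50. For the collagen gene Col1a2 the values were 12.22, 13.31 and 10.14, for the matrix protein gene Mgp 13.79, 14.34 and 10.82, and for Pdgfra, a receptor of fibroblasts and oligodendrocyte precursors, 11.54, 10.63 and 8.12. In these 3 genes WT1 and WT2 lay nearer to each other than to WT3, which was below both by more than 2 units. Other fibroblast genes were spaced otherwise. Decorin (Dcn) read 13.89, 16.13 and 14.44, lowest on WT1. The collagen genes Col3a1 (10.53, 12.25 and 8.73) and Col1a1 (7.59, 9.14 and 6.60) were lowest on WT3, with WT2 well above WT1. Of the 11 fibroblast genes 7 were lowest on WT3 by over 1 unit, against 8.14% of all genes. With the arrays quantile normalised 87 of the 124 genes were lowest on WT3 and 27 by over 1 unit, and with median centring 85 and 27. The shares of all genes were 37.0% and 7.41% with quantile normalisation and 34.1% and 7.49% with median centring.

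WT2 stood apart in genes of smooth muscle and of neutrophils, and in part of the fibroblast list. Smooth muscle actin (Acta2) read 12.70, 15.43 and 12.85 on WT1, WT2 and WT3, smooth muscle myosin (Myh11) 9.67, 11.39 and 9.43 and transgelin (Tagln) 8.81, 11.38 and 9.36. Of 12 mural genes, 6 were highest on WT2 by over 1 unit, against 4.19% of all genes. So were 4 of 11 fibroblast genes and 4 of 9 measured blood genes. The neutrophil granule genes S100a8 (7.92, 12.65 and 7.43), S100a9 (7.33, 11.73 and 4.76), Camp (7.61, 12.14 and 7.50) and Ngp (7.03, 12.18 and 7.60) all lay near background on WT1 and WT3 and above 11.7 on WT2. The range of S100a8 was 37.1-fold. Hemoglobin alpha (Hba-a1), of red cells, was above background on 0 arrays, with 7.06, 6.52 and 6.95. The same held for Alas2 (4.64, 6.93 and 7.03), Cd3e (6.37, 5.99 and 5.12) and Cd79a (6.93, 4.84 and 4.87). None of these was highest on WT2.

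WT1 stood apart in another set. Gal and Uts2, given above, also had their highest value there. Sprr1a, a gene known from injured neurons, read 12.90, 7.57 and 7.85 on WT1, WT2 and WT3, a 40.2-fold range. Transthyretin (Ttr), the main product of the choroid plexus, read 13.22, 7.77 and 9.11. The choroid plexus genes Folr1 (8.41, 7.71 and 7.42) and Kcne2 (5.12, 4.60 and 4.35) were near or below background, and also highest on WT1. Of 9 choroid plexus and ependymal genes 2 were highest on WT1 by over 1 unit, against 4.18% of all genes. Whether choroid plexus was in the sample was not tested. The calcium buffer calretinin (Calb2) read 13.30, 8.37 and 7.19.

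The 15 genes with the largest SD among those above background included these array-specific genes. Besides Sprr1a, S100a8, Ttr, Camp, Gal, Penk and Kcnj9, they were Ifitm1, an interferon-induced membrane protein, with 12.58, 11.54 and 8.52, the histocompatibility gene H2-D1 with 11.43, 11.60 and 8.10, and Slc13a4, Serpina1b, Gna14, Serpinf1, Crispld2 and Slc26a7. Slc13a4, a sulphate transporter, read 11.54, 10.13 and 7.58, and Serpinf1, a secreted serpin, 9.72, 13.14 and 9.83. H2-D1 and Serpina1b have near-identical relatives whose RNA the probes may also read. At the other end, Cyb561, Klf15 and Dnmt3a had the smallest SDs of genes above background, 0.0012, 0.0012 and 0.0030.

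**Figure D4:**
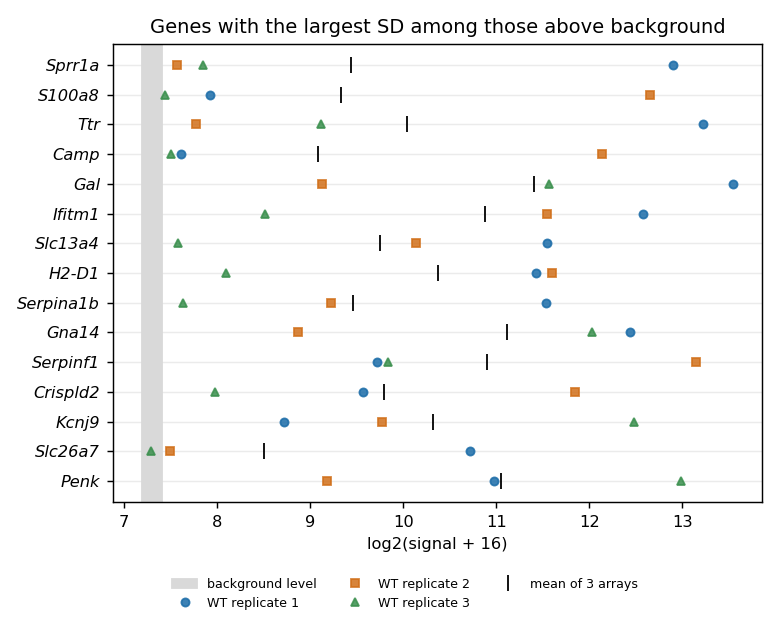
The 15 genes with the largest SD among genes above background, with 1 symbol per array, a bar at the mean and the background level in grey, on a log2(signal + 16) axis. The high value lies on WT replicate 1 for Sprr1a, Ttr and Gal, on WT replicate 2 for S100a8, Camp and Serpinf1, and on WT replicate 3 for Kcnj9 and Penk.

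Agreement between the arrays depended on the signal. Across the 18193 genes, Pearson's r was 0.955 between WT1 and WT2, 0.943 between WT1 and WT3 and 0.943 between WT2 and WT3, as a description, since genes are not independent replicates. The median absolute difference was 0.38, 0.46 and 0.46 for the same pairs. The median SD over all genes was 0.39, and 16.2% of genes (2955) had an SD above 1. Over the 10 level bins, the median SD was highest in the bin from 5.99 to 6.83, at 1.17, and lowest in the top bin, from 13.93 to 17.54, at 0.15. Of genes in that top bin 0.165% had an SD above 1. Set against this, 44 of the 124 non-neuronal genes had an SD above 1, and 9 of the 11 fibroblast genes and 12 of the 21 microglial genes did. All 11 fibroblast genes and 17 of 21 microglial genes also exceeded the median SD of their own bin, where 50% of all genes do.

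**Figure D5:**
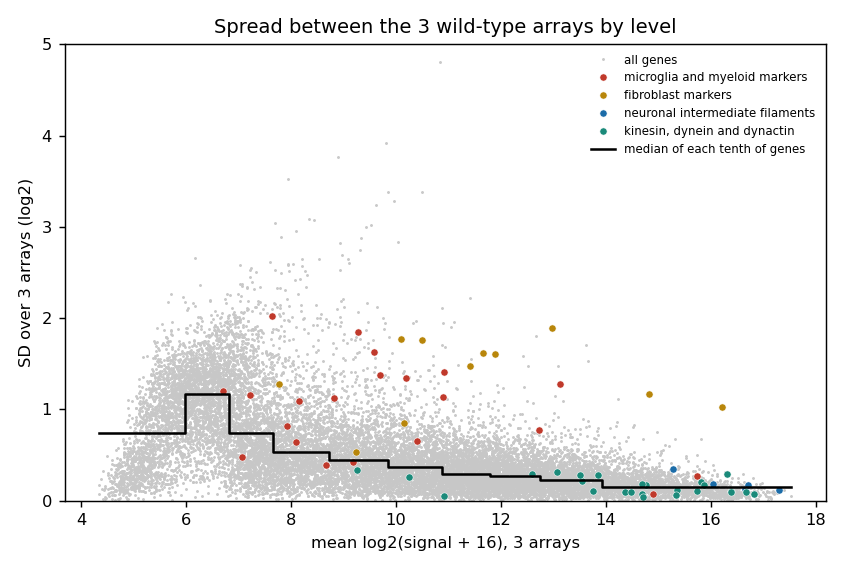
SD of each gene over the 3 arrays against its mean, both on the log2(signal + 16) scale, with the median SD of each of the 10 level bins. The median falls from 1.17 in the second bin to 0.15 in the top bin, and genes of the named lists are drawn in colour.

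The depth of the arrays can be stated only as signal, because the deposited table holds no counts. Signals ran from 0.688 to 203688, and the array medians were 315, 315 and 301. Between 76.2% and 77.5% of genes were above background on each array. The 3′ control probe set of Actb exceeded the 5′ one by 5.01, 4.23 and 4.74 units on WT1, WT2 and WT3, and that of Gapdh by 4.52, 3.35 and 3.29. T7-based amplification starts at the 3′ end, and its part in a low value such as that of Chat was not tested. Xist, the X-inactivation transcript, lay just above background with 7.81, 7.53 and 7.23, and the Y-linked gene Eif2s3y read 11.82, 11.64 and 11.64.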

How the data were processed

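Total RNA of wild-type mouse brainstem motor neurons was amplified in 2 T7-based rounds, per the labels' protocols, and hybridised to a mouse Affymetrix array, 1 array for each of 3 samples. The authors deposited linear intensities for every probe set, without detection calls. Their 2% trimmed mean was 2500.02 on each WT array, so each had been scaled to a common mean. Which algorithm and scanner made them is not given in the sources used here.

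Intensities were used as deposited, with a pseudocount of 16 before log2 and no further normalisation. Of 45101 probe sets, 64 controls were left out, 34945 had 1 symbol in the platform annotation (34741 matched a RefSeq gene of GRCm38.p6 and 0 symbols changed), 932 had several and 9160 were not listed. Of the 18193 genes, 9010 had several probe sets, whose highest exceeded the next by a median of 1.54 and the lowest by 2.99. Python 3.11.15, numpy 2.4.6, pandas 2.3.3 and matplotlib 3.10.9 were used, and the steps were tested on simulated data.

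The WT group, the gene lists and the naming rule were chosen with earlier results of these data known. The rule names the 30 highest means, up to 6 members with the highest mean of each of 50 lists, all members of lists of 10 or fewer, Hox genes above background, and the 15 largest and 10 smallest SDs. The lists of nerve injury genes and of X- and Y-linked genes, and members named outside the rule, were added after values were seen. No test was made, since there is 1 group. Scaling, pseudocount, background level, choice of probe set and each array left out were varied.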

Additional observations from a re-analysis of the deposited data

Results flagged for a closer look

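The annotation used lists no gene for 9160 probe sets, which the descriptions of genes therefore do not use. Of these, 2679 (29.2%) were above background on all 3 WT arrays, against 60.6% of probe sets with 1 symbol and 59.4% of those with several. Their signals reached the level of the top 10% of genes for 144 probe sets and the level of the 30 highest genes for 5. The highest read 17.31, 17.23 and 17.64 on WT1, WT2 and WT3, a mean of 17.39.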

How the results depend on the processing

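No paired analysis was possible because the data are 1 group of 3 arrays and no test was made. The count of genes above background stayed between 10698 and 12975 under every alternative run, within 1.5 times of 12277, and the number of lists with a median percentile above 90 stayed between 7 and 10. All 50 list positions moved by less than their spread over the arrays under pseudocounts of 1 and 64 and quantile normalisation, whereas 27 of 50 moved by more when the probe sets of a gene were averaged and 33 of 50 without probe sets named _s_at, _x_at or _a_at. Ranking only the genes above background moved 46 of 49, by up to 30.2 percentile points. The set of 30 highest signals depended on the probe sets: 15 of the 30 remained with the mean of probe sets and 4 without the shared designs, against 27 to 30 when 1 array was left out. The median SD of 0.39 fell to 0.34 with a pseudocount of 64 and to 0.28 over genes above background only, and lay between 0.27 (without WT3) and 0.33 when 1 array was left out. The counts of non-neuronal genes lowest on WT3 were recomputed under settings chosen after seeing the data. With the mean of probe sets 87 of 124 were lowest, against 38.5% of all genes. Over genes above background only it was 74 of 98, against 37.7%. Signal over background limits what can be said of genes below about 7.4.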

Other observations

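Genes that fell below background on 1 array are outside the ranking by SD in the report, and several of them differed between the arrays by more than any gene in it. They were picked out after their values were seen. Fibromodulin (Fmod), a small proteoglycan of connective tissue, had the largest SD of all 18193 genes, 4.81, with 14.36 and 12.81 on WT1 and WT2 and 5.36 on WT3, below the background of that array. The matrix genes Ogn (12.08, 11.49 and 5.96), Pcolce (11.11, 12.53 and 6.27) and Prg4 (11.85, 10.63 and 6.11) also had WT3 far below the other arrays. So did ceruloplasmin (Cp), which carries copper, with 12.15 on WT1, a similar level on WT2 and 5.29 on WT3, and the transporter Slc47a1, with 11.77, 10.28 and 4.63. None of these 6 genes was on a list, and on all 6 WT3 was the lowest array, as it was for 10 of the 11 genes on the fibroblast list.

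A list of 18 genes known to respond to nerve injury, drawn up after Sprr1a was seen to be high on WT1, was measured in full, and 16 of its genes were above background. Of the 18, 6 were highest on WT1 by over 1 unit, where 4.18% of all genes were. Besides Sprr1a and Gal, the stress transcription factor Atf3 read 11.91, 8.56 and 9.15 on WT1, WT2 and WT3, the cytokine signalling inhibitor Socs3 10.01, 8.0 and 8.84 and the receptor Gpr151 8.64, 4.96 and 4.83. Other members did not share the pattern. The protease Ecel1 read 14.45, 14.87 and 14.99, Sox11 10.45, 10.35 and 10.91 and Jun 13.39, 13.62 and 13.10. The list was chosen on these values, so the count supports nothing beyond itself.

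Of 16 immediate early genes 11 were above background, a share near the 67.5% of all genes. Fos read 13.92, 13.19 and 13.38 on WT1, WT2 and WT3, Jund 14.28, 14.58 and 13.81 and Egr1 11.33, 10.76 and 11.39. Npas4, which neurons induce with activity, read 5.19, 8.27 and 6.51, and Arc 8.59, 8.31 and 8.36. Of the cytosolic ribosomal protein genes, 31 of 32 were above background, and the other was Rps16 with 4.44, 4.43 and 4.41.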
